A study of Caenorhabditis elegans with 2 samples.

Results

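The genes described are the core of insulin signalling in the nematode Caenorhabditis elegans, from the insulin receptor to the transcription factors at its end: daf-2, age-1, daf-18, pdk-1, akt-1, akt-2, sgk-1, daf-16 and skn-1. They are 9 of the 19973 protein-coding genes on the nuclear chromosomes and were taken by gene name from the Ensembl WBcel235 annotation. Each was examined in a window from 2 kb upstream to 1 kb downstream of the gene. The measurement was chromatin immunoprecipitation sequencing (ChIP-seq) of ZFH-2, a transcription factor with zinc fingers and homeodomains, in whole young adult worms of strain RW12167 at 64.5 hours, synchronised by starving first-stage larvae after bleaching. The worms carried a GFP fusion made by CRISPR insertion at the zfh-2 locus (allele st12167). With it went an unc-119(+) marker between loxP sites, in an unc-119(tm4063) mutant background. The sample description gives an antibody against GFP, which is followed here, while the antibody label reads zfh-2. There were 2 biological replicates of this 1 group. No untagged or input library was analysed here, so all values below describe peaks of 1 genotype. In whole worms a peak does not tell the cell type it came from, and binding in few cells cannot be told apart from weak binding in many.

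In C. elegans, insulin-like ligands activate the DAF-2 receptor, which recruits the lipid kinase AGE-1. The lipid that AGE-1 makes, and that the phosphatase DAF-18 removes, activates the kinases PDK-1, AKT-1, AKT-2 and SGK-1, and these hold the FOXO factor DAF-16 and the Nrf factor SKN-1 out of the nucleus. The pathway is best known for its control of lifespan, dauer arrest, fat storage and stress resistance.

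The authors' conservative list, which was made from both replicates together and is used unless another list is named, held 7085 summits on the nuclear chromosomes. A summit is the position of highest enrichment in a peak, the signal is the authors' own value per peak, on a scale that the labels do not explain, and a rank counts from the strongest signal of its list. In this list 20 summits lay in the windows of 7 of the 9 genes. A summit in the window was found for 26% of all protein-coding genes (5191 of 19973, 95% Wilson interval 25.4 to 26.6%). At 5 of the 9 genes, daf-2, pdk-1, akt-1, daf-16 and skn-1, there were 2 or more, against 11.1% of all genes. No summit was listed for age-1 or sgk-1. Genes are not replicates, and the 9 were chosen with earlier results of these data known, so these counts are descriptions with no test.

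The strongest summits away from daf-16 are shown as 101 bases centred on the summit, because they differ in base composition and in GA repeats. They are written on the plus strand of ce11, 5′ to 3′. Capitals mark GAGAGA or its reverse complement TCTCTC.
pdk-1 upstream, chrX:1319909-1320009: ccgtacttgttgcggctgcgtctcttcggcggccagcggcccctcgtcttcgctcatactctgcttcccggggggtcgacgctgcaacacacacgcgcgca
akt-1 upstream, chrV:10247146-10247246: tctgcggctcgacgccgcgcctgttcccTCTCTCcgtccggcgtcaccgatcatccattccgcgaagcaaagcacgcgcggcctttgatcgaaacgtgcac
akt-2 upstream, chrX:14146916-14147016: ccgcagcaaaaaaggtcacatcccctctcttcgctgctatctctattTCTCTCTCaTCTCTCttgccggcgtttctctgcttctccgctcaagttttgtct
daf-2 intron, chrIII:3037419-3037519: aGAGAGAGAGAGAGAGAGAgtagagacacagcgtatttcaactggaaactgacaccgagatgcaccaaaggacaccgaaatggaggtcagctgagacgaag
skn-1 intron, chrIV:5657219-5657319: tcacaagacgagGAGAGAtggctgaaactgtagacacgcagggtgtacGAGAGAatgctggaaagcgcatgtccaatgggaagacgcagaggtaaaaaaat
daf-18 upstream, in a garr-1 exon, chrIV:426724-426824: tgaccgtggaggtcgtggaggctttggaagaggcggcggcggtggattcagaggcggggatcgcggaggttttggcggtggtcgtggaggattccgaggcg
The first, beside pdk-1, and the last, upstream of daf-18, contained 67.3% and 66.3% G and C and no GAGAGA on either strand. The daf-2 sequence opened with a GA repeat of 18 bases and the akt-2 sequence held TC repeats of up to 8 bases, each at a GC content of 49.5%. Repeats were counted within the 101 bases only, so the daf-2 repeat, at the edge, can be longer. The skn-1 sequence held GAGAGA at separate places and had 48.5% GC. The akt-1 sequence combined 64.4% GC with 1 TCTCTC.

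**Figure D1:**
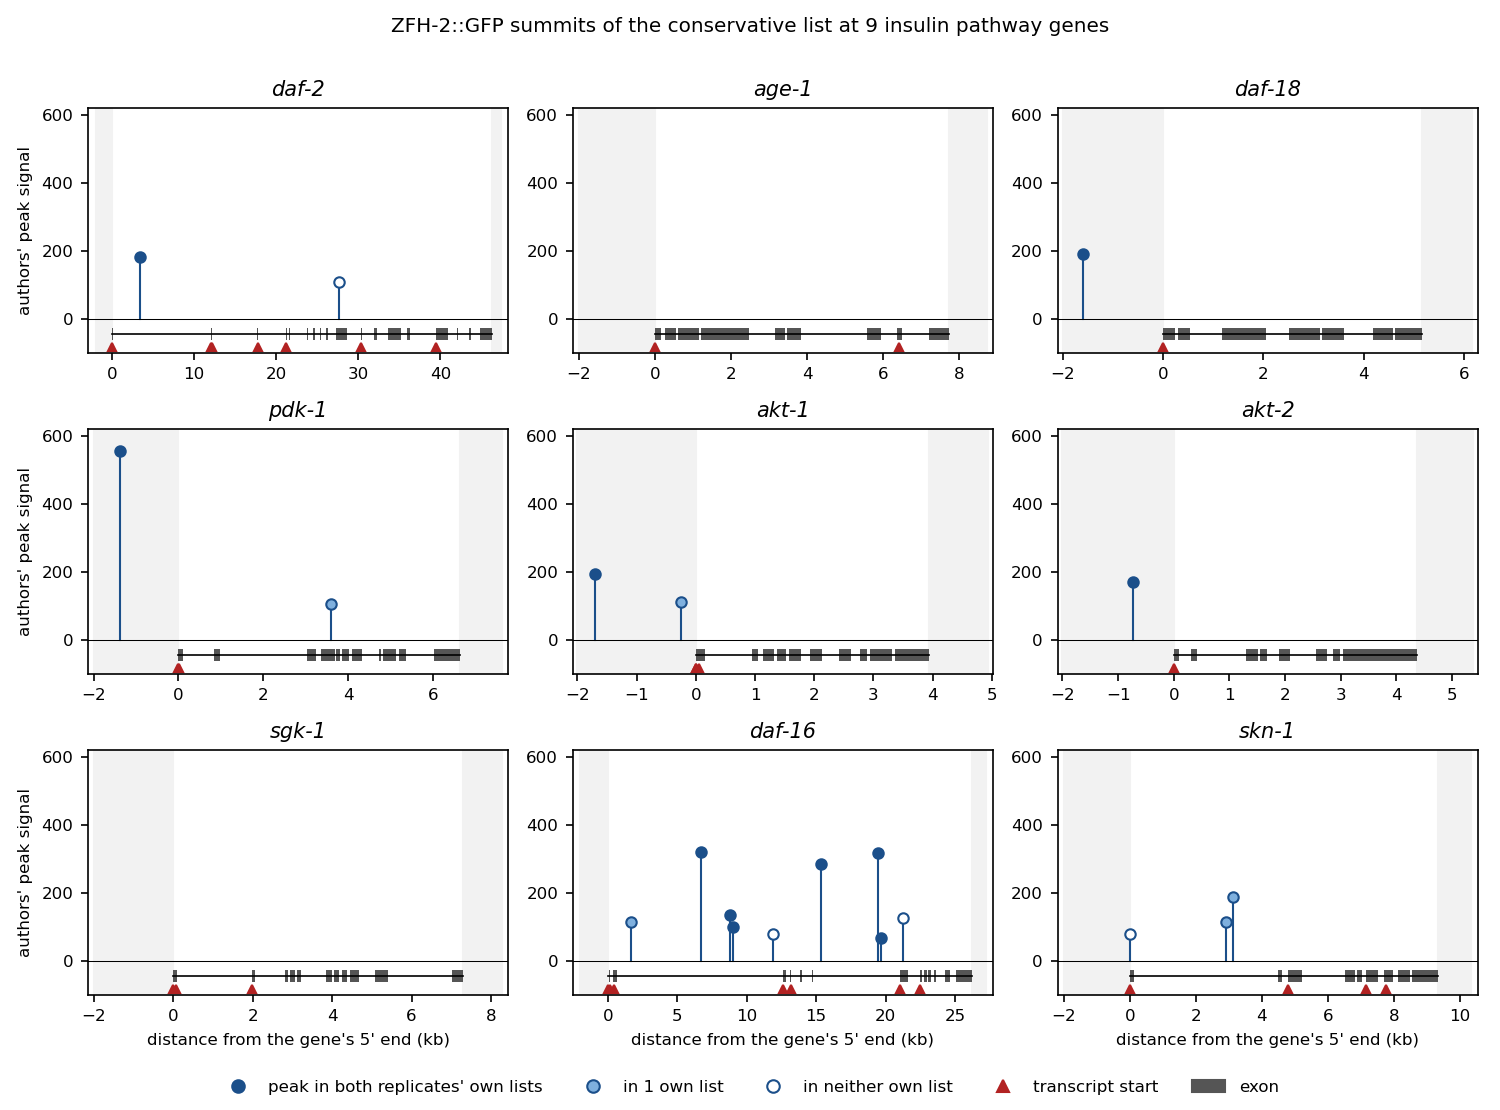
Summits of the conservative list in each gene's window, plotted by distance from the gene's 5′ end (kb) and by the authors' peak signal. Shaded bands are the 2 kb upstream and 1 kb downstream flanks, dark boxes are exons of any transcript, triangles are annotated transcript starts, and the fill of a point shows whether the peak overlaps one in both, 1 or neither of the replicates' own thresholded lists. The signal of 557 upstream of pdk-1 is the highest, daf-16 carries 9 summits, and age-1 and sgk-1 carry none.

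The receptor gene daf-2 (III 2994514 to 3040846, minus strand, 7 annotated transcript starts) had 2 summits in a window of 49333 bp. The stronger lay at III 3037469 in an intron and 3377 bp inside the gene, counted from the 5′ end, with a signal of 182 (rank 1503 of 7085). Replicate 1's own thresholded list gave it a signal of 112 (rank 1121 of 4281) and replicate 2's a signal of 71.8 (rank 2327 of 4696), so both replicates had this peak. It was also 74 bp inside the 5′ end of linc-143, a long non-coding RNA gene annotated on the same strand as daf-2. The second summit lay in a coding exon at III 3013226, 27620 bp from the 5′ end, with a signal of 107 (rank 4215). Neither replicate's thresholded list held it. In the longer ranked lists it had a signal of 63.4 in replicate 1 and 39.7 in replicate 2. No summit lay from 1000 bp upstream to 200 bp downstream of any daf-2 transcript start, the promoter window used below.

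The lipid kinase gene age-1 (II 11519328 to 11527054), which encodes the catalytic subunit of the phosphoinositide kinase, had no summit in the conservative list or in replicate 1's own list. Replicate 2's own list held 1, in an intron at II 11522771, 4283 bp from the 5′ end, with a signal of 51.1 (rank 3951 of 4696). The annotated gene Y62F5A.10 also covers that position. The ranked list of replicate 1 had no peak overlapping it. The ranked series list, made from both replicates, had its highest signal of this window, 78.2 (score 469), at 4275 bp from the 5′ end. That peak overlapped the one of replicate 2. Another, with its summit at 4977 bp, had a signal of 69.7 (score 543). Replicate 1's ranked list overlapped it with a signal of 51.8 (score 729), and replicate 2's had no overlapping peak. The highest score of that series list in the age-1 window was 589, at 4073 bp. Replicate 2's ranked list overlapped the peak at 4073 bp with a signal of 51.1 (score 933), and replicate 1's had no overlapping peak. The series list's peak at 168 bp, in a coding exon, had a signal of 53.4 (score 492). Both replicates' ranked lists held a weak peak overlapping that one, of 30.8 (score 412) in replicate 1 and 16.6 (score 181) in replicate 2.

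The lipid phosphatase gene daf-18, which acts against age-1 (IV 420011 to 425177), had 1 summit at IV 426774, 1597 bp upstream of its only transcript start. Its signal was 190 (rank 1358 of 7085). The replicates' own lists held it with signals of 106 in replicate 1 (rank 1288 of 4281) and 93.2 in replicate 2 (rank 1320 of 4696). The summit lay in a coding exon of the neighbouring gene garr-1, which is transcribed away from daf-18, 606 bp downstream of the garr-1 start. The window therefore holds the peak by distance from daf-18, while the nearest transcript start was that of garr-1.

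Among the protein kinase genes, pdk-1, whose product phosphorylates AKT and SGK kinases (X 1321344 to 1327986), had the highest signal of the 9 genes. Its summit at X 1319959 was intergenic, 1385 bp upstream of the pdk-1 start, which was also the nearest protein-coding start, and its peak ran from 1319695 to 1320180. The signal was 557, rank 43 of 7085, or within the strongest 0.607% of the list. Replicate 1 gave it a signal of 299 (rank 58 of 4281) and replicate 2 a signal of 259 (rank 38 of 4696), with summits 2 and 3 bp from that of the conservative list. A second pdk-1 summit, in a coding exon at X 1324945, had a signal of 104 (rank 4400). It was in replicate 2's own list (signal 49.9, rank 4041) and not in replicate 1's, whose ranked list gave it 56.1 with a score of 538. The score follows the irreproducible discovery rate (IDR), reaches at most 1000, and was at least 830 for every thresholded peak, which is an IDR of about 0.01 or less.

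Both AKT genes had peaks upstream of their starts. At akt-1 (V 10248905 to 10252845), the summit at V 10247196 lay 1709 bp upstream with a signal of 194 (rank 1270). It was held by both own lists, with a signal of 114 in replicate 1 and 81.1 in replicate 2. It fell inside C12D8.25, an annotated non-coding RNA of 141 bp on the opposite strand. The other akt-1 summit, at V 10248663, was 242 bp upstream of the start, with a signal of 112 (rank 3929), and was in the own list of replicate 2 (52.6) but not of replicate 1 (55.9 and a score of 725 in the ranked list). At akt-2 (X 14147700 to 14152070), which acts with akt-1, the only summit lay at X 14146966, 734 bp upstream, with a signal of 170 (rank 1769). Both own lists held it, at 110 in replicate 1 (rank 1182 of 4281) and 56.7 in replicate 2 (rank 3487 of 4696). It was the only peak of any rank in the akt-2 window of either replicate's ranked list.

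The kinase gene sgk-1 (X 16254842 to 16262122), the homologue of the serum- and glucocorticoid-regulated kinase, had no summit in any thresholded list. The highest score in its window of the ranked series list was 809, just under the 830 of the weakest thresholded peaks, at an intronic position 3349 bp from the 5′ end. Its signal there was 70.2, an IDR of 0.0113. The replicates gave that place 38 (score 435) in replicate 1 and 31.8 (score 446) in replicate 2. An upstream window of 5 kb in place of 2 kb gave sgk-1 1 summit.

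At the end of the pathway, daf-16, the FOXO factor gene that the kinases restrain (I 10750498 to 10776703), had 9 summits in a window of 29206 bp. As many or more were found for 28 of the 19973 genes (0.14%). With 1 summit per merged region daf-16 had 7, and in each replicate's own list it had 6. The rank among genes was counted only for the 9. Of these 9, the 3 strongest lay at I 10757194 (signal 319, rank 302), I 10769950 (318, rank 304) and I 10765834 (285, rank 444), all in introns. In replicate 1 their signals were 177, 194 and 144, and in replicate 2 they were 147, 130 and 142, all in the thresholded lists. The gene has 11 annotated transcripts with 7 separate starts. The summit at 10757194 lay 6696 bp downstream of the first start (that of R13H8.1h.1) and 5909 bp upstream of the start shared by R13H8.1b.1 and R13H8.1c.1. The summit at 10765834 lay 2180 bp downstream of the start of R13H8.1l.1, and that at 10769950 lay 1558 bp upstream of the start of R13H8.1a.1.

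The other 6 daf-16 summits were weaker, with signals of 66.5 to 136. Those at 8793 and 8999 bp from the 5′ end overlapped the same peak in each own list, and so did the pair at 19452 and 19653 bp, which share 1 interval. In the ranked lists the summit at 19653 bp had 28.1 in replicate 1 and 27.9 in replicate 2. The summit at 1664 bp (signal 114) was in replicate 1's own list (78.9) and not in replicate 2's, where the ranked list gave 35.2 (score 510). The summit at 11866 bp (signal 78.4) was the only one in a daf-16 promoter window, 739 bp upstream of the R13H8.1b.1 start, and was in neither own list. The summit at 21281 bp (signal 125) was the only one in a coding exon, 271 bp downstream of the R13H8.1a.1 start, and was also in neither own list. Replicate 1's own list held 1 further peak, 392 bp upstream of the first start with a signal of 85 (rank 2182 of 4281). Its summit lay inside the annotated genes H36N01.1 and H36N01.4. This peak overlapped none of replicate 2's ranked list or of the ranked series list.

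At skn-1, the Nrf factor gene of oxidative stress and detoxification responses (IV 5651039 to 5660384), 3 summits were listed, none of them in replicate 2's own list. The strongest, in an intron at IV 5657269, 3115 bp from the 5′ end, had a signal of 189 (rank 1370). In replicate 1 it had 134 (rank 726 of 4281), and in replicate 2, it had 58.4 and a score of 747 in the ranked list. It lay 1664 bp upstream of the start of T19E7.2c.1. A neighbouring summit at IV 5657468 had a signal of 114, with 73.3 in replicate 1's own list and 33.1 (score 180) in replicate 2's ranked list. The third lay in the first coding exon, 7 bp inside the T19E7.2a.1 start, with a signal of 79.5 (rank 6248), and was in neither own list. The authors' other thresholded series list held 5 skn-1 summits.

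**Figure D2:**
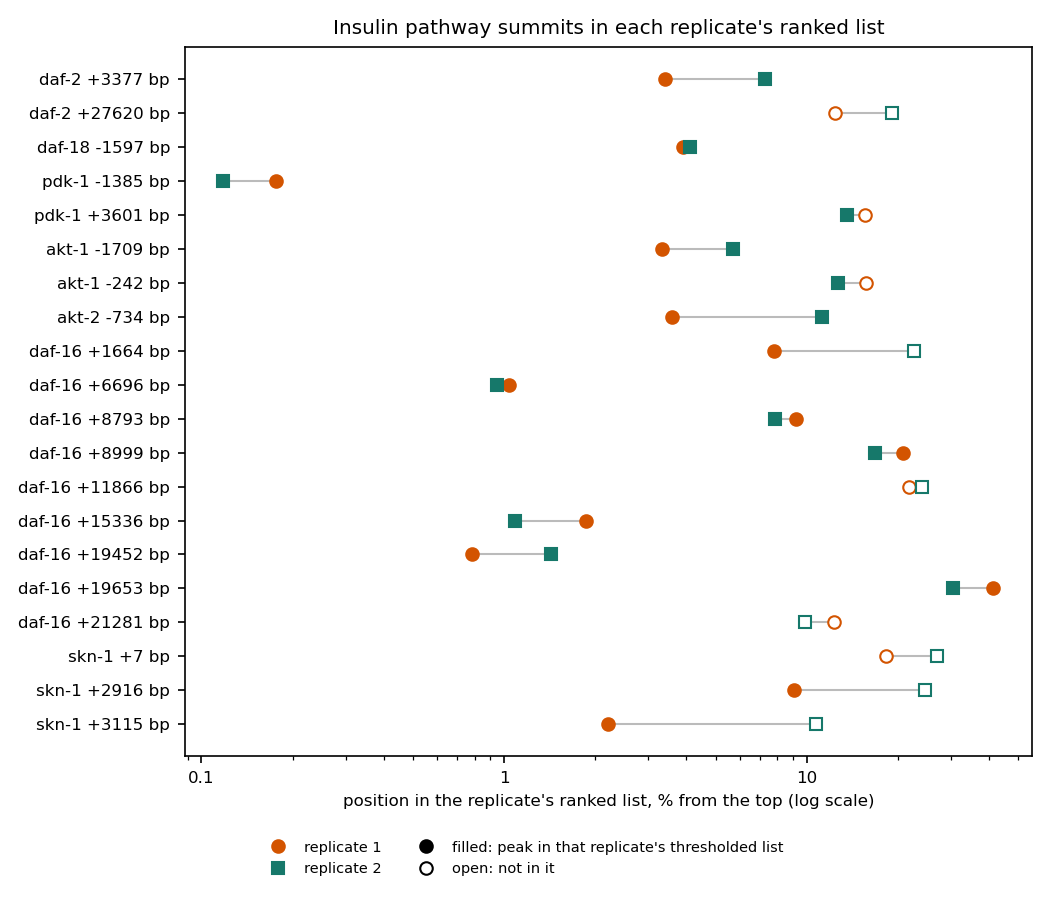
Position of the ranked-list peak nearest to each of the 20 summits, as the percentage from the top of replicate 1's (circles) and replicate 2's (squares) ranked list, on a log scale. Labels give the gene and the summit's distance from its 5′ end, and filled symbols mark summits whose peak overlaps one of that replicate's thresholded list. The summit upstream of pdk-1 lies at 0.176% and 0.118%, and the skn-1 summits have no filled square.

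Of the 20 summits, 11 overlapped a thresholded peak of both replicates (55%), against 3419 of all 7085 (48.3%). Outside daf-16 the count was 5 of 11 (45.5%), below the share of all summits. A further 3 were shared with replicate 1 only (15%, against 10.7% of all summits), 2 with replicate 2 only (10%, against 13.2%), and 4 with neither (20%, against 27.9%). Requiring an overlap of at least 50% of each peak gave 9 shared by both replicates in place of 11. So did requiring an own-list summit within 100 bp. These stricter counts were not made for all summits. All 20 had an overlapping peak in both ranked lists, where 7056 of all 7085 summits were matched too. Each replicate's own list put a summit in 7 of the 9 windows, against 19.1% of all genes for replicate 1 and 20.1% for replicate 2, but not in the same 7: replicate 1 had skn-1 and not age-1, and replicate 2 had age-1 and not skn-1. In both own lists a summit was found for daf-2, daf-18, pdk-1, akt-1, akt-2 and daf-16, which is 6 of 9, against 15.7% of all genes. Over the 20 summits the signals of the nearest ranked peaks had a Spearman rho of 0.836 between replicates (0.791 over the 11 outside daf-16), against 0.714 over 7056 matched summits. These correlations are across peaks, which share their 2 libraries and are not independent.

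Window length has to be read beside these counts. Of the 9 genes, 8 were in the longest 20% of windows (7322 bp or more), where 45.5% of genes had a summit, and 6 of these 8 did. The remaining gene, akt-1, was in the next 20%, where 26.3% did. The 20 summits came to 1.39 per 10 kb of window, against 0.756 over the windows of all protein-coding genes, and the value was 0.958 without daf-16, a setting chosen after its 9 summits were seen. Among the 25 genes with windows of 40 kb or more the median was 4 summits, above the 2 of daf-2. Among the 275 genes with windows of 20 to 40 kb the median was 2, below the 9 of daf-16, and 16 of them (5.82%) had 9 or more. In windows of 10 to 20 kb, 51.8% of genes had a summit, whereas age-1 and sgk-1, in that class with skn-1, had none.

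**Figure D3:**
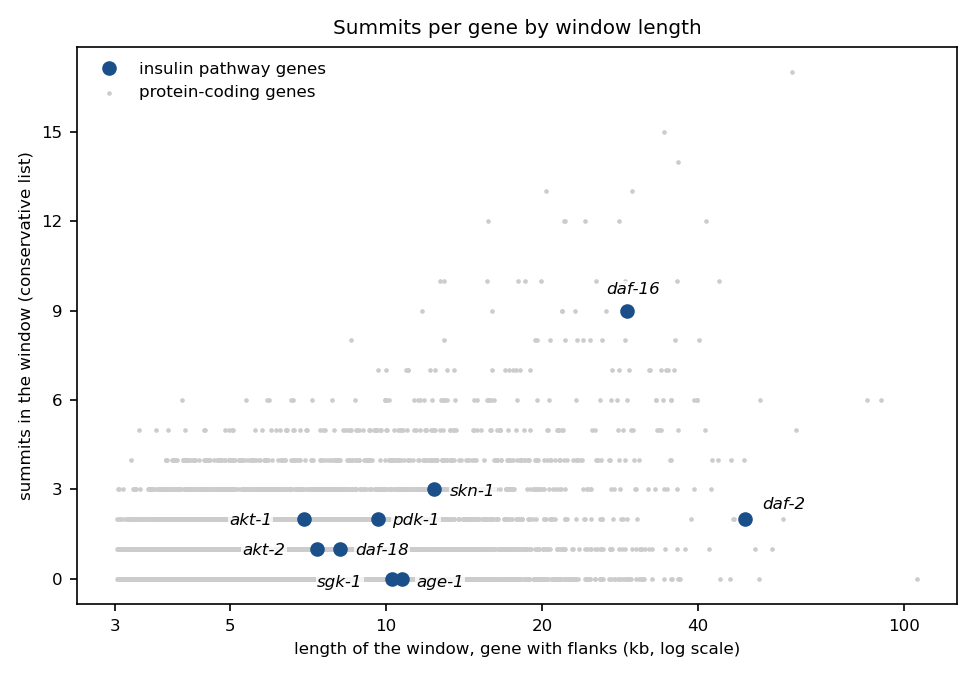
Number of conservative summits in each gene's window against the window's length in kb (log scale). Blue points are the 9 insulin pathway genes and grey points the protein-coding genes, several of which can share a point. daf-16 lies above the median of 2 for windows of 20 to 40 kb, and daf-2 below the median of 4 for windows of 40 kb or more.

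The summits lay mostly away from transcript starts, as did those of the whole list. Of the 20, 4 (20%) were in a promoter window, at akt-1, akt-2, daf-16 and skn-1, while 2234 of all 7085 summits (31.5%) were in the promoter window of some protein-coding gene. Of the 9 daf-16 summits, only that at 11866 bp from the 5′ end was among these 4. Counted by gene, 4 of the 9 genes had a promoter summit, against 10.6% of all protein-coding genes. A gene with more annotated starts has more such windows, and daf-16 had 7 starts and skn-1 had 4. The 10.6% was not matched for the number of starts. With the gene's 5′ end alone, 3 of the 9 genes had a promoter summit, against 8.82%. The 4 promoter summits had signals of 112, 170, 78.4 and 79.5. Signals of the summits outside such windows ran from 66.5 to 557, so the ranges overlapped. Introns held 11 of the 20 summits (55%), against 21.8% of all summits, and 3 of the 11 outside daf-16 (27.3%). Coding exons of any gene held 5 of the 20 (25%), against 45.1% of all, and 4 of the 11 outside daf-16 (36.4%). The median signal was 131 for the 20, against 119 for all summits, and 7 of the 20 were in the strongest 20% of the list.

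Non-coding RNA genes were annotated at several of these positions. A summit fell inside an annotated non-coding gene in 5 of the 20 cases (25%), against 9.84% of all summits. Such genes covered 2.41% of the bases in the 9 windows and 4.95% of those of the nuclear genome, so both shares of summits exceeded the coverage. The 5 were the linc-143 and C12D8.25 positions at daf-2 and akt-1, R13H8.4 (59 bp) and R13H8.5 (123 bp) at daf-16, and T19E7.27 (150 bp) at skn-1. What these RNAs do is not annotated in the sources used here.

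GC content was high at the summits. Within 50 bp of the 20 summits it averaged 53.6% ± 7.18 (SD over summits), against 36.4% ± 9.3 over all positions of the 9 windows and 55.1% ± 7 at all summits of the list. The values ran from 42.6% at the weaker intronic skn-1 summit to 67.3% upstream of pdk-1. Set against the positions of its own window, a summit lay between the percentile of 65.3, at that skn-1 summit, and 99.7, at the farther akt-1 summit. The nearer akt-1 summit was at 80.4, and the pdk-1 summits were at 99.6 upstream and 97.3 in the exon. The genes with no conservative summit also held GC-rich stretches, of up to 62.4% in age-1 and 66.3% in sgk-1. These are the highest single positions of windows of 10727 bp and 10281 bp. How far GC content accounts for the peaks was not tested.

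**Figure D4:**
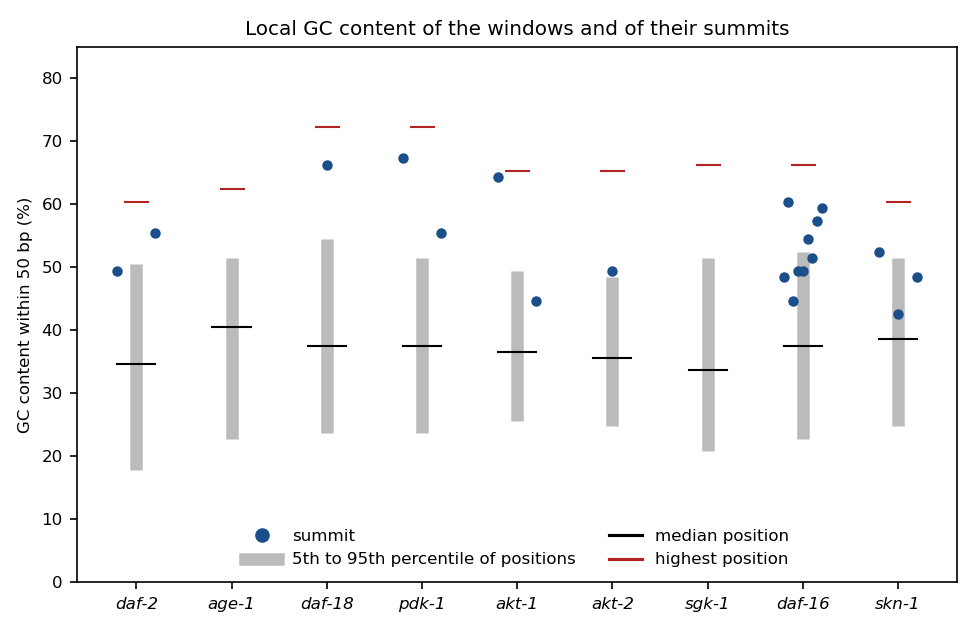
GC content (%) within 50 bp of each summit (blue points) beside the positions of the same gene's window: the grey bar spans the 5th to 95th percentile, the black line is the median and the red line the highest value. Summits lie at 42.6 to 67.3%, all above the median of their window, and age-1 and sgk-1 reach 62.4% and 66.3% with no summit.

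Motifs were counted on either strand within 50 bp of the summits. GAGAGA occurred at 9 of the 20 summits (45%), against 16% of all 7085 summits and 5.18% of windows of the same length tiled over the nuclear genome. The 9 were at daf-2, akt-1, akt-2, skn-1 and 5 of the daf-16 summits, so they stand for 5 genes. The longest GA repeat at a daf-16 summit had 12 bases, at the summit 1664 bp from the 5′ end. The homeodomain core TAATTA was at none of the 20, against 0.692% of all summits and 4.75% of genome windows. The forkhead element TGTTTAC, the kind of sequence that DAF-16 itself binds, was also at none, against 0.607% of all summits and 1.12% of genome windows, nor was the E-box CACGTG (3.81% and 1.67%). The DAF-16-associated element CTTATCA was at 1, the weaker intronic skn-1 summit, against 0.677% of all summits and 1.72% of genome windows. The motifs found at none of the 20 were rare among all summits, so their absence does not set the 20 apart. Genome windows were not matched for GC content, which averaged 55.1% at all summits and 36.4% over all positions of the 9 gene windows. The comparison with genome windows therefore cannot separate a motif from base composition. A match is a description of the sequence and not a binding site.

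Genes around the core pathway were read from 5 lists of 89 genes found in the annotation. Of these, 33 (37.1%) had a summit in their window, against 26% of all genes, with 0.954 summits per 10 kb. The median window ran from 4310 bp for the SKN-1 target genes to 10200 bp for the TOR and AMPK genes. The 26% was not matched to these lengths. Of 23 insulin pathway adaptors and DAF-16 regulators, 9 had a summit (39.1%). The strongest were at cbp-1, a histone acetyltransferase gene (signal 494, 858 bp upstream), at pptr-1, a regulatory subunit of the phosphatase that acts on AKT-1 (469, 1427 bp upstream), at smk-1, a DAF-16 cofactor (357, 1294 bp upstream), and at par-5, a 14-3-3 gene (211, 125 bp upstream, inside M117.11 and M117.12). Each of these 4 peaks was in both own lists, and the signals of cbp-1, pptr-1 and smk-1 were below that of pdk-1 and above that of every other core gene.

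Of 15 genes of the TOR and AMPK pathways, which sense nutrients and energy beside insulin, 8 had a summit (53.3%), in windows with a median length of 10200 bp. The strongest were at flcn-1, the folliculin gene (signal 426, in an intron 15131 bp from the 5′ end, inside the microRNA gene cel-mir-8192), aak-2, a catalytic subunit of AMPK (257), rheb-1, a GTPase that activates TOR (230, at a position inside spk-1), and sesn-1, the sestrin gene (175). Of 16 SKN-1 regulators, 6 had one (37.5%), led by xrep-4 (161, inside cey-2), the Mediator gene mdt-15 (155), wdr-23, whose product targets SKN-1 for degradation (153), and the p38 pathway kinase gene sek-1 (129, inside R03G5.6). Of 21 DAF-16 target genes, 7 had a summit (33.3%), while the thresholded list of replicate 1 alone gave 5 and that of replicate 2 alone gave 4. The 7 were led by gpd-2, which encodes a glyceraldehyde phosphate dehydrogenase (264, at a position inside the neighbouring gene mai-1), the glyoxylate cycle gene icl-1 (184), lea-1 (133) and nnt-1 (124), and the classical target genes sod-3 and mtl-1 had none. Of 14 SKN-1 target genes, 3 had one (21.4%): gst-38 (133, inside F35E8.7), dhs-8 (124, inside K10H10.14) and sod-1 (92.3), and neither gst-4 nor gcs-1 did. Each replicate's own list had a summit for only 1 of these 14 genes, and those of dhs-8 and sod-1 were in neither. The differences between the lists were not tested.

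**Figure D5:**
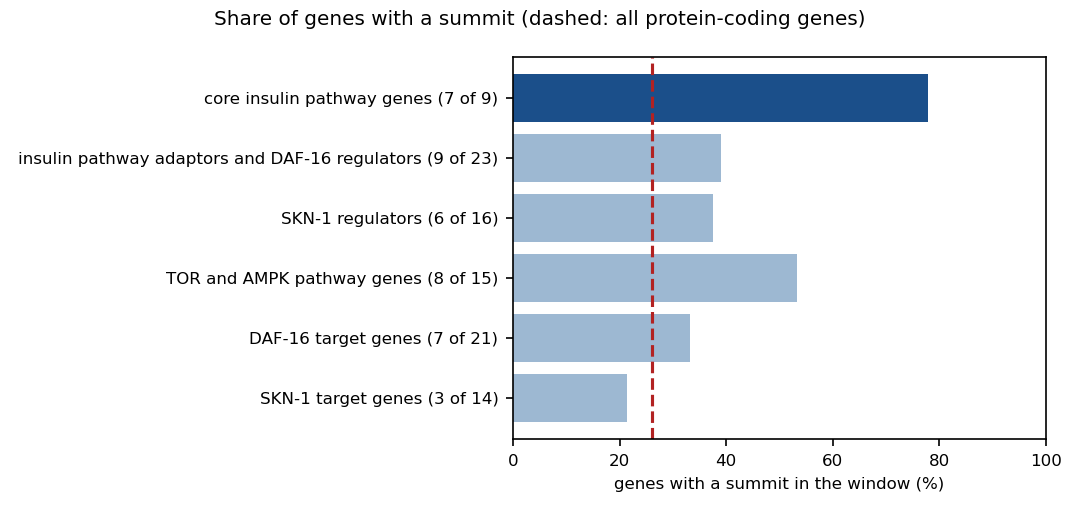
Percentage of genes with a conservative summit in the window for the 9 insulin pathway genes and for 5 lists of related genes, with counts in the labels. The dashed line is the 26% of all protein-coding genes, not matched to window length. The core pathway stands at 77.8% and the SKN-1 target genes at 21.4%, and window lengths differ between the lists.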

How the data were processed

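ChIP-seq in whole young adult worms, against GFP by the sample description, yielded lists of peaks on ce11, per the labels. The authors deposited, for each of the 2 replicates, a thresholded and a ranked list made from that replicate's alignments, and series lists made from both. The aligner, caller and control were not given in the sources used here. Each deposited peak has a signal of unstated scale, a score that follows the IDR, and a summit offset; the ranked lists, per the deposited readme files, also hold −log10 of the global IDR. The 8 further columns of the ranked series list name no sample and were not used. Depth is unknown, as no file holds read counts, and Wilson intervals cover counting of genes only.

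Summits were placed on Ensembl release 115 genes (WBcel235, the same build; 0 peaks ended beyond a chromosome) and bases were read from the RefSeq genome of that assembly. Mitochondrial peaks were left out. Peaks were shared when they overlapped by at least 1 bp. Coding exon, other exon, intron and non-coding gene were assigned in that order. The counting was tested on simulated peaks. With 1 group no test between samples was possible. The members and lists were chosen with earlier results of these data known. Named genes are all 9 members, up to 4 genes per list with the highest signal, and neighbours at a summit; sod-3, mtl-1, gst-4 and gcs-1 were named after their values were seen. Of 90 listed genes, sodh-1 was not matched by name. Alternatives were the other series list, each replicate's own list, the stronger 50% of peaks, 1 summit per merged region, other windows and other overlaps. Versions were matplotlib 3.10.9, SciPy 1.17.1, pandas 2.3.3, NumPy 2.4.6 and Python 3.11.15.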

Additional observations from a re-analysis of the deposited data

How the results depend on the processing

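Of the results with a processing alternative, the count of members with a summit in the window was 7 or 8 except for gene bodies alone (4). The replicates' own lists, each leaving out the other replicate, gave 13 to 14 summits in place of 20, 2 promoter members in place of 4, a background of 19.1 to 20.1% in place of 26% and a promoter background of 7.54 to 7.78% in place of 10.6%. The stronger 50% of peaks gave 11 summits, 1 promoter member, and backgrounds of 17% and 6.67%. Gene bodies alone gave a background of 14.8% and 18 of the 89 related genes in place of 33, and 5 kb upstream gave 33%. A promoter window of 500 bp upstream to 100 bp downstream gave 2 members and 6.31%, and the gene's 5′ end alone gave 3 members and 8.82%. Of the SKN-1 target genes 1 had a summit in each replicate's own list in place of 3, and of the DAF-16 target genes 4 to 5 in place of 7. Leaving out daf-16, chosen after seeing the data, left 11 summits. With 1 summit per merged region there were 17 summits, 7 of them at daf-16. Shared summits were 11 with thresholded and 20 with ranked lists. With thresholded lists they were 9 at an overlap of at least 50% of each peak, and 9 with own summits within 100 bp. The settings differ in how many peaks or bases they keep; further causes were not tested. No paired analysis was possible because there is 1 group. No value has a depth, so weak places such as sgk-1 are not called unbound.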
